A study of Mus musculus with 4 samples.

Results

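The genes described here handle cholesterol, lipoproteins and fatty acids in microglia, the resident macrophages of the brain. They are 49 genes chosen by name for that role, of 18526 genes listed in the deposited tables: enzymes of sterol synthesis, the SREBP and LXR transcription factors with their partners, lipid exporters, lipoproteins and their receptors, and genes of lipid storage and fatty acid synthesis. Earlier results of these data were known when this list and its roles were drawn up. Of the 49, 47 stood in both deposited tables, Apoc2 stood in 1 table and Olr1, a scavenger receptor for oxidised lipoprotein, in neither. The tested libraries came from sorted brain microglia of C57BL/6 mice at embryonic day 14: 1 library of the conditional Arid1a knockout (genotype Arid1acKO, replicate 2) and 2 libraries of floxed animals that served as controls (Arid1afl/fl, replicates 5 and 6). Arid1a codes for a part of the BAF complex, which moves nucleosomes. The labels name 4 samples, and knockout replicate 1 was not analysed here. The Cre driver, and whether a sample was 1 embryo or a pool, are not given in the sources used here. For tissue, the telencephalon is named in the series text and the cortex in the extraction protocol.

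Cells make cholesterol from acetyl units through the mevalonate pathway, under the control of SREBP transcription factors that are released from the membrane when sterol runs low. When sterol is plentiful, oxysterols and late pathway intermediates activate the liver X receptors (LXR), which switch on the exporters ABCA1 and ABCG1 and the lipoprotein APOE. Macrophages store what they neither use nor export as cholesteryl esters and triglycerides in lipid droplets. In the brain, which receives little cholesterol from the blood, glia supply lipoprotein particles carrying APOE to other cells.

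Depth was 17262261 counted reads in the knockout library, against 18608979 in control 5 and 13774075 in control 6. Levels below are read counts scaled to library size (CPM) with TMM factors, under which 1 read was worth 0.0547 CPM in the knockout library and 0.0559 and 0.0741 CPM in controls 5 and 6. There is no replicate error for the knockout, while the spread of the controls is an SD over n = 2. Arid1a itself stood at 68.9 CPM in the knockout library, against 109 and 130 CPM in controls 5 and 6, lowest in the library labelled knockout; counts over the whole gene include exons that a floxed allele keeps. Of 10 microglia markers, 9 were lowest in the knockout library and Csf1r lay between the controls, and their summed level was 17746 CPM in the knockout library against 23625 and 33160 CPM in the controls. Summed markers of other cells were 325 CPM against 318 and 353 CPM for border macrophages, 134 against 147 and 162 CPM for monocytes and neutrophils, 114 against 140 and 160 CPM for neurons, and 103 against 101 and 118 CPM for neural progenitors. Endothelial, mural and erythroid markers summed to at most 39.3 CPM in any library. Of the markers in both tables, none of the markers of other cells was at 0 reads in the knockout library, while Lyve1, Cd163, Mpo and Pdgfrb were at 0 in control 5 and Cldn5 in control 6. In bulk RNA, fewer cells of a type and less RNA per cell cannot be told apart, and the part of these markers in the results below was not tested.

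The knockout library had more Apoe, Apoc1 and Pltp, more of the fatty acid synthesis genes Fasn, Scd2 and Acaca, and more Srebf1 and Srebf2 than either control. It had less of the sterol exporters Abcg1 and Abca1 and of the cholesterol-esterifying enzyme Soat1. The enzymes that make cholesterol lay close to the controls, with a median log2 fold change of 0.12 over 14 genes. The size of the differences ran from a log2 fold change of -1.60 for Pparg to 4.05 for Pltp.

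None of the 47 tested genes passed the edgeR quasi-likelihood test after Benjamini-Hochberg adjustment over all 15236 genes tested (smallest adjusted p = 0.294, for Pltp), where 6 genes or 0.0394% of the table passed. At an unadjusted p under 0.05 there were 7 of the 47, 5 higher (Apoe, Apoc1, Pltp, Fasn and Scd2) and 2 lower (Abcg1 and Soat1), against 6.0% of all genes, 2.46% higher and 3.54% lower. The DESeq2 Wald test called 1, the lower Abcg1 (adjusted p = 0.0127), where it called 1.46% of all genes in either direction and 1.03% as lower. DESeq2 gave an adjusted p for 45 of the 47, Fdps and Scd1 having none. With edgeR none of the 47 was called with genes in either table (background 0.0634%), or with no low-count filter or other scaling factors (0.0%). A filter of 5 CPM in at least 2 libraries (0.457%) left 42 to test, without Pltp, Ch25h, Nr1h3, Fdps and Scd1, and none was called. Only the controls supply the 1 residual degree of freedom, so the fit takes the knockout to be as variable as them.

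The knockout library stood above both controls in 24 of the 47 genes (51.1%) and below both in 11 (23.4%), where 38.0% and 31.1% of all genes tested did so. That makes 35 genes outside both controls, where 69.1% of all genes were. Scd1, counted among the 24, passed the low-count filter through its knockout reads alone. Among the 41 with a mean of 5 CPM or more, 8 were at least 1.5-fold above both controls and 5 at least 1.5-fold below both. Of all genes at that level, 9.29% were so far above and 11.4% so far below. These counts are a description: the mean includes the knockout library, so Pltp reached that level through the knockout value alone, and Pparg and Dgat2 through the control values, the side on which each was high. The median log2 fold change was 0.34 over the 47 and 0.05 over all genes, and it was 0.35 over control 5 alone and 0.24 over control 6 alone. The 2 controls differed from each other by a median of 0.41 on the log2 scale over these genes, against 0.52 over all genes.

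**Figure D1:**
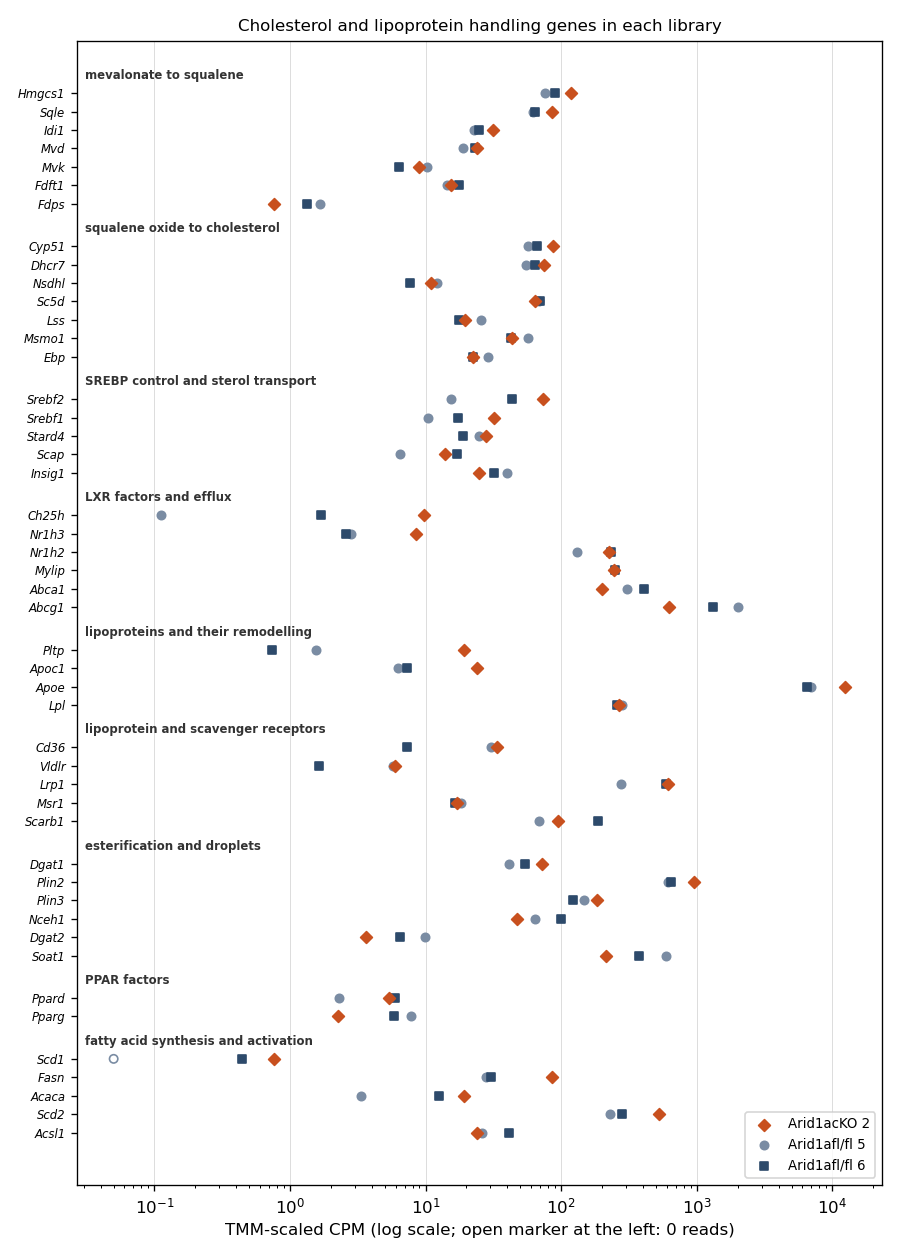
TMM-scaled CPM (log axis) of the 47 genes listed in both tables, in the Arid1acKO library (diamonds) and the Arid1afl/fl libraries 5 (circles) and 6 (squares), grouped by role. The diamond lies right of both controls in 24 genes and left of both in 11, and Apoe is the most abundant of these 47 genes in all 3 libraries.

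The first 7 enzymes of the sterol pathway in the list run from acetyl units to squalene epoxide. Hmgcs1, the synthase that makes HMG-CoA (ENSMUSG00000093930, GRCm38 chromosome 13, 119690462 to 119708086, plus strand), had 118 CPM in the knockout library, against 75.3 and 89.6 CPM in controls 5 and 6. Sqle, squalene epoxidase and a rate-limiting step, had 85.1 CPM against 61.8 and 63.6 CPM. Both were highest in the knockout library, with log2 fold changes of 0.52 (SE 0.39) and 0.44 (SE 0.40). A gene on the opposite strand covers 12.1% of the exon bases of Hmgcs1. Idi1, the isopentenyl diphosphate isomerase, had 31.2 CPM against 22.7 and 24.6 CPM, and Mvd, mevalonate diphosphate decarboxylase, had 23.9 CPM against 18.7 and 22.97 CPM. Mvk, mevalonate kinase, had 8.98 CPM against 10.3 and 6.37 CPM, and Fdft1, squalene synthase, had 15.4 CPM against 14.4 and 17.6 CPM. Those last 2 lay between the controls, and Ctsb on the opposite strand covers 18.3% of the exon bases of Fdft1. Fdps, farnesyl diphosphate synthase, was counted 14 times in the knockout library, against 30 and 18 times in controls 5 and 6, fewer than any other enzyme of this pathway in the list. Another annotated gene on its own strand covers 26.7% of its exon bases, and how such reads were counted is not given in the sources used.

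The next 7 enzymes turn squalene epoxide into cholesterol. Cyp51, lanosterol demethylase, had 86.2 CPM in the knockout library, against 56.5 and 66.5 CPM in controls 5 and 6, a log2 fold change of 0.49 (SE 0.40). Dhcr7, which carries out the last reduction to cholesterol, had 75.0 CPM against 54.8 and 63.6 CPM (log2 fold change 0.34, SE 0.41). These 2 were the only enzymes of this stretch above both controls. Sc5d, sterol C5 desaturase, had 64.0 CPM against 68.9 and 69.7 CPM, and Ebp, the sterol isomerase, had 22.2 CPM against 28.9 and 22.4 CPM, the lowest value in each case, though Ebp was close to control 6. Lss, lanosterol synthase, had 19.4 CPM against 25.7 and 17.6 CPM. Msmo1, a methylsterol oxidase, had 43.1 CPM against 56.5 and 42.5 CPM, and Nsdhl, a sterol dehydrogenase, had 10.9 CPM against 12.1 and 7.71 CPM. These 3 lay between the controls.

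Over all 14 synthesis enzymes the knockout library was above both controls in 6 (42.9%), below both in 3 (21.4%) and between them in 5. Of all genes tested, 38.0% were above both and 31.1% below both. The summed level of the 14 enzymes was 605 CPM in the knockout library against 508 and 516 CPM in the controls. Among the 13 at a mean of 5 CPM or more, none was 1.5-fold from both controls. Of all genes at that level, 9.29% were so far above and 11.4% so far below. Fdps, with its few reads, was below both by more than 1.5-fold. The median log2 fold change of 0.12 was -0.00 over control 5 alone and 0.19 over control 6 alone, so it has no direction that holds against both.

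The promoters of these enzymes were searched for sequence features that the choice of genes did not use, and the CCAAT box was the one found in all of them. SREBP factors bind sterol regulatory elements and act together with NF-Y, which binds the CCAAT box. Promoters from RefSeq on GRCm38.p6, 300 bases each with 250 before and 50 after the start, were found for 36 of the 49 genes. The CCAAT box, searched as CCAAT on both strands, stood in the promoters of all 11 sterol enzymes that had an entry, in 16 of 25 (64.0%) of the other genes with an entry, and in 37.4% of all 32851 promoters. The core of the sterol regulatory element, searched as TCACCCCA on both strands, stood in 4 of the 36 genes, Hmgcs1, Srebf2, Apoe and Acsl1, and in 1.56% of all promoters. Of the 11 sterol enzymes it was in 1, Hmgcs1. A longer form, TCACNCCAC, which overlaps the core, stood in Hmgcs1 and Acsl1 and in 1.24% of all promoters. The E-box CACGTG stood in 7 of the 36, 2 of them sterol enzymes (Dhcr7 and Sc5d), and in 7.15% of all promoters. The spellings were chosen after several had been counted, and where a gene has several starts a match at any of them was counted. The shares of all promoters count each promoter singly, so they are not on the same footing as the shares of genes. A match is a description of the letters and not a bound site. Only these exact spellings were searched, so an element spelled otherwise would be missed. A promoter without a match may therefore still hold a sterol element.

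The promoters of Hmgcs1, Cyp51 and Idi1 are shown as examples from the enzymes above both controls, and that of Srebf2 because it holds both kinds of element. Mvd and Dhcr7, also above both controls and with a promoter entry, are not shown. Capitals mark TCACCCCA, TCACNCCAC and CCAAT, the last also as its reverse complement ATTGG. The promoters shown lie at chr13:119690101-119690400 (plus strand), chr5:4104648-4104947 (minus strand), chr13:8885356-8885655 (plus strand) and chr15:82147019-82147318 (plus strand). In that order, their starts lie 111, 49, 105 and 3 bases from the 5′ end of the gene in the files. In Hmgcs1 the sterol element begins 137 bases before the start, and in Srebf2 it begins 162 bases before, with a CCAAT box at 135 bases.
Hmgcs1: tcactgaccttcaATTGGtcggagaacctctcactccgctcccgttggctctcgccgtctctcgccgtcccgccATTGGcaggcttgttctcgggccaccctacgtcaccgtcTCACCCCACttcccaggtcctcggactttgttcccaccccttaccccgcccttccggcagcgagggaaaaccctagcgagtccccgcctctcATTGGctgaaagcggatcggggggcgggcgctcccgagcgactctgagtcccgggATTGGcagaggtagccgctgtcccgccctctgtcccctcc
Cyp51: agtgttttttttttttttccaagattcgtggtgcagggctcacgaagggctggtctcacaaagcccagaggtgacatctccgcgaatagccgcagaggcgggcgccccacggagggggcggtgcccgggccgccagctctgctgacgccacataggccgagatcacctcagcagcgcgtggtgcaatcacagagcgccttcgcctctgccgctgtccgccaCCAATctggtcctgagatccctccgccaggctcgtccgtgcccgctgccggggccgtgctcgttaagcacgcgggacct
Idi1: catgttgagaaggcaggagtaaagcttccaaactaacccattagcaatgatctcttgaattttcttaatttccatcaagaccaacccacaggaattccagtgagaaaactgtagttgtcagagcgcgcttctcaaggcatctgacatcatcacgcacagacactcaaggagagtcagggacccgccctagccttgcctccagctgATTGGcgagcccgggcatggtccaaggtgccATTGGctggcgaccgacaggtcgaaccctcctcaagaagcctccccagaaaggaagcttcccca
Srebf2: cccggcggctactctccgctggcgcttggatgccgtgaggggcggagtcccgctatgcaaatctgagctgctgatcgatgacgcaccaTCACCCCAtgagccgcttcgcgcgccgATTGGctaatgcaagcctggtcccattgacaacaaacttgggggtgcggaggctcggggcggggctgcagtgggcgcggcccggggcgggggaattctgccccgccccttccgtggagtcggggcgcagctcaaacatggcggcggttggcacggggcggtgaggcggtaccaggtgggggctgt

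Of the genes that control this pathway, both SREBP genes were highest in the knockout library. Srebf2, whose product chiefly drives cholesterol synthesis (ENSMUSG00000022463, chromosome 15, 82147266 to 82205376, plus strand), reached 73.4 CPM in the knockout library, with an exact 95% Poisson interval of 69.5 to 77.4, against 15.2 CPM in control 5 and 43.0 CPM in control 6. Srebf1, whose product chiefly drives fatty acid synthesis (ENSMUSG00000020538, chromosome 11, 60199089 to 60222581, minus strand), had 31.9 CPM (29.4 to 34.6) against 10.3 and 17.2 CPM. The controls were apart in both genes, with log2 ratios of control 5 over control 6 of -1.49 for Srebf2 and -0.73 for Srebf1. The log2 fold changes were 1.34 (SE 0.61, adjusted p = 0.863) and 1.21 (SE 0.59, adjusted p = 0.889) by edgeR.

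The proteins that hold SREBP back or escort it did not follow the same order. Insig1, which retains SREBP in the endoplasmic reticulum and is itself an SREBP target, had 24.6 CPM in the knockout library against 39.9 and 31.9 CPM in controls 5 and 6, the lowest of the 3. Scap, the escort of SREBP, had 13.9 CPM against 6.42 and 17.0 CPM, between controls that were far apart. Stard4, a sterol carrier of the cytosol and an SREBP target, had 27.7 CPM against 24.7 and 18.7 CPM. An antisense or opposite-strand gene covers 13.2% of the exon bases of Scap, and the library kit does not mark strand.

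The LXR genes and their export targets went in different directions. Abcg1, which passes cholesterol to lipoprotein particles (ENSMUSG00000024030, chromosome 17, 31057698 to 31115777, plus strand), had 626 CPM in the knockout library (interval 614 to 637), against 1994 CPM in control 5 and 1310 CPM in control 6. It was the lowest of the 3, at 0.314 times control 5 and 0.477 times control 6. The log2 fold change was -1.40 (SE 0.39), with an adjusted p of 0.477 by edgeR and 0.0127 by DESeq2. Over all the alternatives run its adjusted p ranged from 0.0127 to 0.776. Abca1, which loads cholesterol onto apolipoproteins (ENSMUSG00000015243, chromosome 4, 53030787 to 53159895, minus strand), had 201 CPM against 305 and 406 CPM. It too was lowest in the knockout library, with a log2 fold change of -0.82 (SE 0.38, adjusted p = 0.865).

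The receptor genes themselves did not share that order. Nr1h3, encoding LXR alpha, had 154 reads or 8.43 CPM in the knockout library, against 2.79 and 2.59 CPM in the controls, the highest of the 3 at a low level (log2 fold change 1.64, SE 1.04). Nr1h2, encoding LXR beta, was far more abundant, with 226 CPM against 130 and 233 CPM, between the controls. Mylip, an LXR target whose product degrades lipoprotein receptors, differed least, with 245 CPM against 243 and 251 CPM. Ch25h, the enzyme that makes the oxysterol 25-hydroxycholesterol, was counted 177 times in the knockout library and 2 and 23 times in controls 5 and 6. That is 9.69 CPM against 0.112 and 1.70 CPM, highest in the knockout library. Since control 5 held only 2 reads, the ratio over it was 86.7 with a 95% interval of 23.7 to 722 for counting error, and 5.69 over control 6. The log2 fold change was 3.42 (SE 1.54, adjusted p = 0.851), and an opposite-strand gene covers 11.5% of its exon bases.

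The Abca1 promoter (chr4:53159846-53160145, minus strand) is shown as that of the exporter whose control by LXR is best known. Its E-box, in capitals, begins 147 bases before the start. An exact direct repeat of the LXR half-site (DR4), searched on both strands, was in 0 of the 36 genes and in 0.0213% of all promoters. Only that exact spelling was searched, and it is so rare that a match among 36 genes was unlikely from the outset. An LXR element spelled otherwise would be missed. The search therefore cannot decide whether the Abca1 promoter shown, or any other promoter of the list, holds an LXR element.
Abca1: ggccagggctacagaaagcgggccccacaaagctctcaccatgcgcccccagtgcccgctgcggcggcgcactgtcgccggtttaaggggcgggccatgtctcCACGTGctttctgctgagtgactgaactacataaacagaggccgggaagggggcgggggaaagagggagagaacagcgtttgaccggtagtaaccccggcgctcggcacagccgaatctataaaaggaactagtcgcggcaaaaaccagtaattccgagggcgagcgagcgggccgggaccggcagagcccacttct

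**Figure D2:**
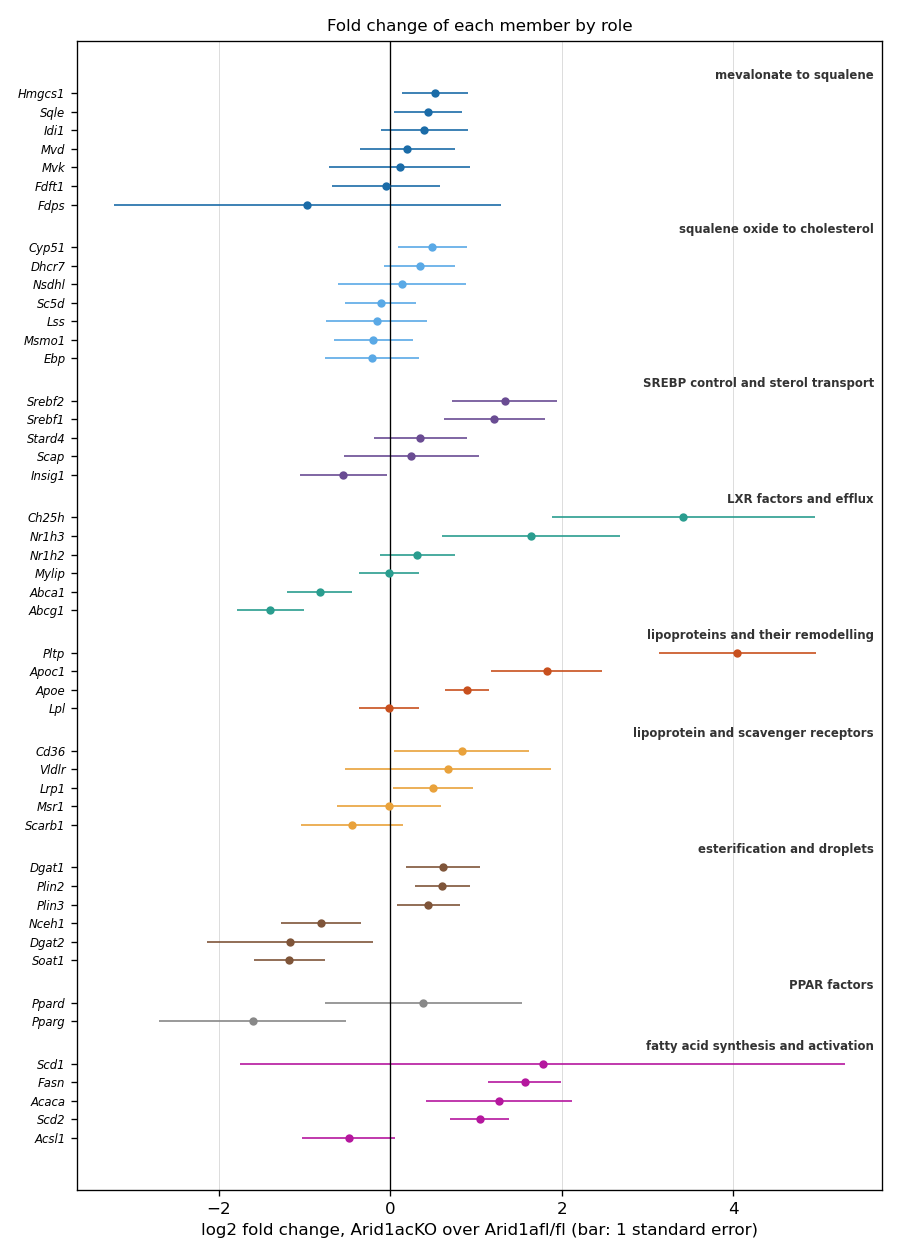
Log2 fold change of Arid1acKO over Arid1afl/fl for each of the 47 genes by role, with bars of 1 standard error from the edgeR fit. Pltp lies farthest right at 4.05 and Pparg farthest left at -1.60, while the 14 sterol enzymes lie between -0.97 and 0.52.

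Among the lipoprotein genes, Apoe had more reads than any other gene of the knockout library. Apoe, the main apolipoprotein of the brain (ENSMUSG00000002985, chromosome 7, 19696109 to 19699188, minus strand), was counted 227555 times in the knockout library, against 123352 and 88137 in controls 5 and 6. That was 1.32% of all counted reads, against 0.663% and 0.640%, and it ranked 1 among all genes in the knockout library and 6 and 7 in the controls. On the scaled measure it stood at 12457 CPM (interval 12406 to 12508) against 6711 ± 254 CPM (SD, n = 2), 1.81 times control 5 and 1.91 times control 6. The controls were close to each other, and the log2 fold change of 0.89 had an SE of 0.26 (adjusted p = 0.533 by edgeR, 0.167 by DESeq2).

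Apoc1, a small apolipoprotein encoded 3449 bases from Apoe (ENSMUSG00000040564, chromosome 7, 19689481 to 19692660, minus strand), was read 438 times in the knockout library, against 111 and 99 times in controls 5 and 6. It stood at 24.0 CPM against 6.77 ± 0.803 CPM (SD, n = 2). Its log2 fold change was 1.82, with an SE of 0.65 and an edgeR adjusted p of 0.713. Apoc2, the activator of lipoprotein lipase in the same cluster, was at 0 reads in the knockout library and at 19 in control 5. With a floor of 3 reads in place of 0, the knockout is 6.46-fold lower than control 5, whose 19 reads are taken as exact. Apoc2 was not listed beside control 6 and was not tested, so the difference rests on control 5 alone. A gene on its own strand covers 79.5% of its exon bases.

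Pltp, which moves phospholipid between lipoproteins (ENSMUSG00000017754, chromosome 2, 164839518 to 164857711, minus strand), differed most. It was read 353 times in the knockout library, against 28 and 10 times in controls 5 and 6. The ratio was 12.4 over control 5 and 26.1 over control 6, with a log2 fold change of 4.05 (SE 0.92) and adjusted p from 0.0508 to 0.543 over the tests run. The gene Ctsa on the opposite strand covers 19.3% of its exon bases, so reads of the pair cannot be told apart there. Lpl, lipoprotein lipase, did not share these differences, at 266 CPM in the knockout library against 282 and 257 CPM in the controls.

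The Apoe promoter (chr7:19699139-19699438, minus strand, at the start that matches the 5′ end of the gene in the files) is shown because it holds the sterol element core, in capitals, 213 bases before the start.
Apoe: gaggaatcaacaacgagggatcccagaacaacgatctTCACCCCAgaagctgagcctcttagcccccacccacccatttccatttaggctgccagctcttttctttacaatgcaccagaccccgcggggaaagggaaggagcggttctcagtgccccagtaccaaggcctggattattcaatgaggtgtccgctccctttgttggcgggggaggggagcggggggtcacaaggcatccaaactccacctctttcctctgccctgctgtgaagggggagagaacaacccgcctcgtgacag

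The receptors for lipoproteins and modified lipids were the role in which the controls differed most from each other, by a median of 1.46 on the log2 scale. Lrp1, a large endocytic receptor that takes up APOE particles, had 614 CPM in the knockout library against 277 and 594 CPM in controls 5 and 6, close to control 6. Scarb1, a receptor for high-density lipoprotein, had 93.9 CPM against 68.1 and 188 CPM. Cd36, a scavenger receptor and fatty acid carrier, had 33.7 CPM against 30.4 and 7.34 CPM, close to control 5. Vldlr, a receptor for APOE and reelin, had 108 reads against 103 and 22, the same pattern. Msr1, a scavenger receptor of macrophages, had 17.1 CPM against 18.1 and 16.5 CPM. The knockout library was above both controls in 3 of these 5 and below both in 0, where 38.0% and 31.1% of all genes tested were. None of the 5 was 1.5-fold from both.

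In lipid storage, the genes split evenly, 3 above both controls and 3 below, where 38.0% and 31.1% of all genes tested were. Plin2, the coat protein of lipid droplets (ENSMUSG00000028494, chromosome 4, 86648386 to 86670060, minus strand), had 954 CPM in the knockout library, against 608 and 647 CPM in controls 5 and 6, a log2 fold change of 0.60 (SE 0.32, adjusted p = 0.926). Plin3, a related coat protein, had 182 CPM against 146 and 122 CPM. Dgat1, which makes triglyceride, had 72.6 CPM against 40.8 and 53.9 CPM. These 3 were highest in the knockout library.

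Soat1, which esterifies cholesterol for storage (ENSMUSG00000026600, chromosome 1, 156424525 to 156474331, minus strand), went the other way, with 213 CPM in the knockout library (interval 207 to 220) against 588 and 377 CPM in controls 5 and 6. Its log2 fold change was -1.18 (SE 0.41), with an adjusted p of 0.709 by edgeR and 0.111 by DESeq2. Nceh1, a hydrolase of cholesteryl ester, had 46.8 CPM against 64.2 and 100 CPM. Dgat2, the other triglyceride-making enzyme, had 3.61 CPM against 9.83 and 6.45 CPM. Thus Dgat1 and Dgat2 lay on opposite sides of both controls, and Dgat2 was the scarce member of the pair in all 3 libraries, also per length (1.17 CPM per kb of exon in the knockout library against 3.19 and 2.09, where Dgat1 had 23.8 against 13.4 and 17.7). The PPAR genes encode receptors for fatty acids. Pparg had 41 reads or 2.24 CPM in the knockout library against 7.82 and 5.85 CPM, the lowest of the 3 (log2 fold change -1.60, SE 1.09). Ppard had 5.36 CPM against 2.29 and 5.93 CPM, between the controls.

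Of the 5 genes of fatty acid synthesis and activation, 4 were above both controls, where 38.0% of all genes were. Scd1, 1 of those 4, had few reads and passed the low-count filter only through the knockout library, where it was highest. The median log2 fold change of the 5, Scd1 included, was 1.27. Fasn, fatty acid synthase (ENSMUSG00000025153, chromosome 11, 120805846 to 120824547, minus strand), was read 1563 times in the knockout library, against 496 and 406 in controls 5 and 6. That was 85.6 CPM (interval 81.4 to 89.9) against 28.9 ± 1.68 CPM (SD, n = 2), 3.09 times control 5 and 2.84 times control 6. The controls nearly coincided, and the log2 fold change was 1.57 (SE 0.42, adjusted p = 0.457 by edgeR and 0.147 by DESeq2).

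Scd2, the stearoyl-CoA desaturase of the brain (ENSMUSG00000025203, chromosome 19, 44293676 to 44306864, plus strand), had 523 CPM in the knockout library against 229 and 279 CPM in the controls, a log2 fold change of 1.04 (SE 0.34, adjusted p = 0.638). Its neighbour and paralog Scd1, 87587 bases away, was counted 14 times in the knockout library, against none in control 5 and 6 in control 6. With the same floor in place of 0, the knockout is 4.57-fold higher than control 5, its own 14 reads taken as exact. Reads of such a pair may be divided by the counting. Per length, Scd2 had 95.7 CPM per kb in the knockout library against 41.9 and 51.0, and Scd1 had 0.157 against 0 and 0.0909. Acaca, acetyl-CoA carboxylase, had 349 reads or 19.1 CPM against 3.35 and 12.5 CPM. It was highest in the knockout library, but its log2 ratio was 2.51 over control 5 and 0.61 over control 6. Acsl1, which activates fatty acids, was the exception in the role, with 24.0 CPM against 26.0 and 41.2 CPM.

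The Fasn promoter (chr11:120824498-120824797, minus strand) is shown because it belongs to the gene of this role with the closest controls. It holds 3 CCAAT boxes in capitals, the last 2 overlapping each other, and no TCACCCCA.
Fasn: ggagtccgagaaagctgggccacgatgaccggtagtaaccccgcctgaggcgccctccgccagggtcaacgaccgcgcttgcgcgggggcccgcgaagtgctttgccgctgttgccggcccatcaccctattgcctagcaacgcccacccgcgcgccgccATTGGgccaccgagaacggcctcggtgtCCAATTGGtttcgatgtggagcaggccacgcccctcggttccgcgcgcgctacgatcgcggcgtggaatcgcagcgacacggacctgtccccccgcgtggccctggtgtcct

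**Figure D3:**
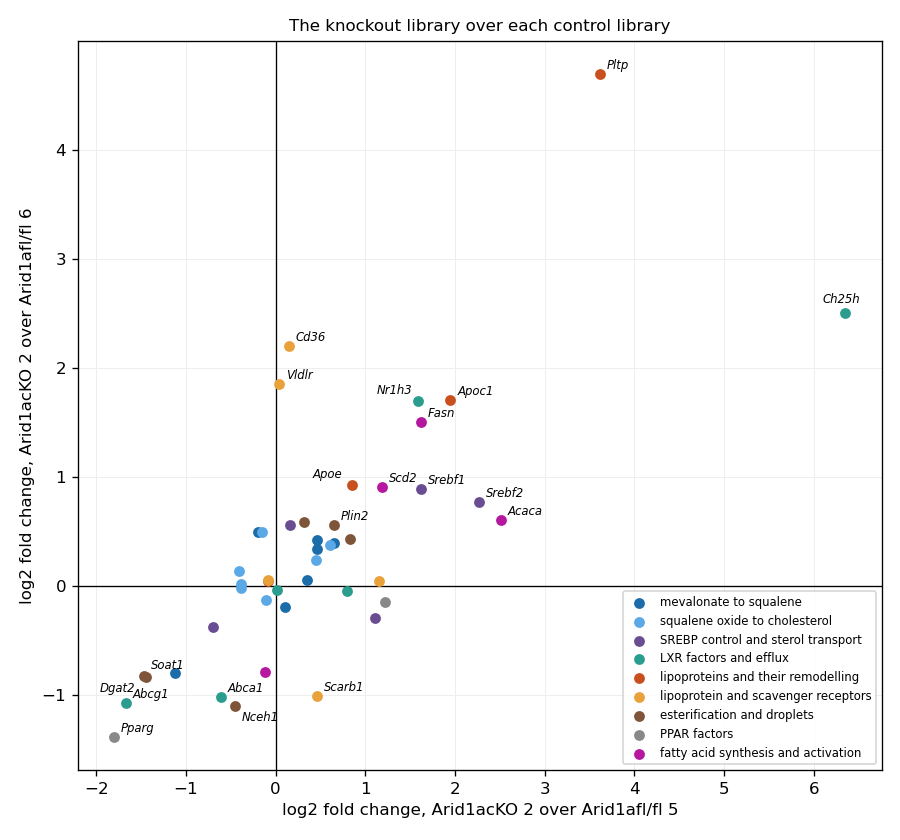
Log2 fold change of the Arid1acKO library over control 5 (horizontal) and over control 6 (vertical) for the genes with reads in both controls, coloured by role. Fasn, Apoe and Scd2 lie at like distances on both axes, Cd36 and Vldlr lie high over control 6 and near 0 over control 5, and both axes share the knockout library.

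Per length, the order of the genes was similar at the top of the list. Apoe had 5826 CPM per kb of exon in the knockout library against 3223 and 3055 in controls 5 and 6, ranking 1 of 47 in each library. Plin2, Abcg1, Mylip, Nr1h2 and Scd2 made up ranks 2 to 6 in the knockout library, with Scd2 at 3 and Abcg1 at 4. Abcg1 had 85.7 CPM per kb in the knockout library against 273 in control 5 and 180 in control 6, and Plin2 had 272 against 173 and 184. Apoc1 ranked 9 in the knockout library and 24 and 22 in controls 5 and 6, and Soat1 ranked 13 against 5 and 8. Summed over the 47 genes the level was 17754 CPM in the knockout library against 12612 and 12133 CPM, and without Apoe it was 5297 against 5722 and 5602 CPM. Apoe therefore held more than the whole difference in the sum.

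A further 40 genes of cholesterol and fatty acid metabolism that are not in the list of 49 were read in the same fit. Of these, 35 were in both tables and tested, 0 passed the edgeR test after adjustment and 4 reached an unadjusted p under 0.05, 2 higher (Fabp5 and Cpt1a) and 2 lower (Insig2 and Acsl4). Of all genes, 6.0% reached that unadjusted p. DESeq2 called 1, Fabp5 (adjusted p = 0.0165), where it called 1.46% of all genes. The knockout library was above both controls in 10 (28.6%) and below both in 14 (40.0%), where 38.0% and 31.1% of all genes were, and the median log2 fold change was -0.16. At a mean of 5 CPM or more, 1 of 31 was at least 2-fold above both controls and 1 at least 2-fold below, against 3.39% and 4.95% of all genes at that level.

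Fabp5, a fatty acid binding protein, had 151 CPM in the knockout library against 35.9 and 50.3 CPM in controls 5 and 6, a log2 fold change of 1.81 (SE 0.41, adjusted p = 0.288 by edgeR). Insig2, like Insig1 a retention factor for SREBP, had 27.8 CPM against 60.8 and 63.9 CPM, the lowest of the 3 (log2 fold change -1.17, SE 0.46). The fatty acid elongases Elovl5 and Elovl6 stood above both controls, at 98.7 CPM against 46.1 and 61.4 CPM and at 7.88 CPM against 3.30 and 5.63 CPM. The citrate lyase Acly, which supplies acetyl units, had 474 CPM against 282 and 461 CPM. Cpt1a, the entry enzyme of fatty acid oxidation, was also above both controls, at 105 CPM against 30.5 and 62.8 CPM. Below both controls were Acsl4 (55.0 CPM against 194 and 97.4 CPM), Lpcat3 (180 against 247 and 274 CPM) and Acsl5 (297 against 367 and 334 CPM). Over all the further genes tested, 10 stood above both controls and 14 below both. Acacb, the mitochondrial carboxylase, was at 0 reads in the knockout library against 20 and 8 reads, and passed the low-count filter through the controls. With that floor in place of 0, the knockout is 5.21-fold lower than the mean of the controls, whose counts are taken as exact.

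Of the enzymes of the mevalonate pathway, its branches and sterol synthesis among them, Acat2, Ggps1, Lbr and Hsd17b7 lay below both controls. Pmvk and Tm7sf2 lay between the controls. Acat2, the thiolase at the start of the pathway, had 119 CPM in the knockout library against 200 and 164 CPM in controls 5 and 6, and Lbr, a sterol reductase of the nuclear envelope, had 42.2 CPM against 68.5 and 73.1 CPM. The lysosomal cholesterol exporter Npc1 had 42.0 CPM against 72.6 and 74.8 CPM, while its soluble partner Npc2 had 1572 CPM against 1336 and 1490 CPM. Rxra, the partner of LXR and PPAR in their dimers, had 57.3 CPM against 14.8 and 35.0 CPM (log2 fold change 1.20, SE 0.58, adjusted p = 0.889). Of these further genes, all but Fabp5 and Insig2 were picked out after their values were seen.

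**Figure D4:**
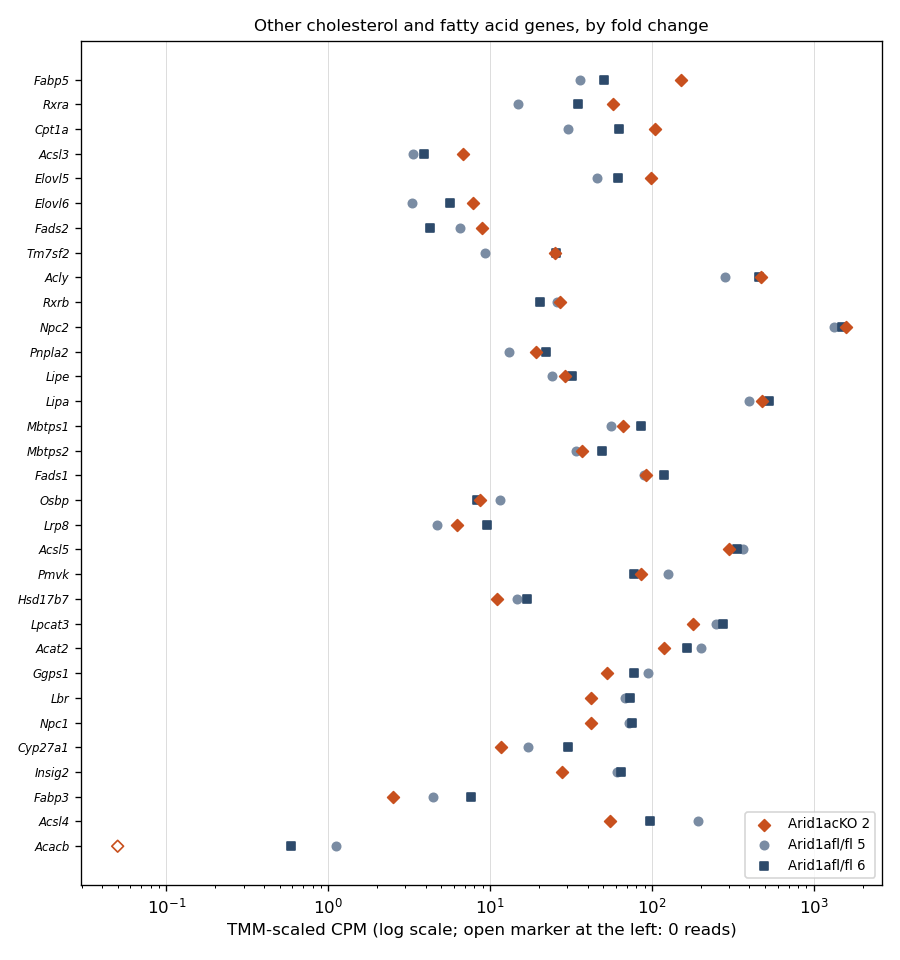
TMM-scaled CPM (log axis) of further cholesterol and fatty acid genes in the Arid1acKO library (diamonds) and the Arid1afl/fl libraries 5 (circles) and 6 (squares), ordered by fold change. Fabp5 is at the top with 151 CPM in the knockout library against 35.9 and 50.3 CPM, and Acacb at the bottom has 0 reads in the knockout library.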

How the data were processed

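RNA of sorted microglia was sequenced with an Illumina TruSeq kit, per the labels' protocols. The tools named are TopHat2 2.0.12, Bowtie2 2.2.3 and HTSeq 0.6.0, with build mm9, per the submitters' processing notes. Gene positions in the files overlap those of GENCODE M21 (GRCm38) for 99.9% of matched IDs, so coordinates are on GRCm38. The authors deposited 2 tables, each with raw read counts of knockout replicate 2 and of 1 control, and CPM values, which here served only to check the totals. The tables share 16655 genes, with equal knockout counts, and a further 574 and 1297 genes stand in 1 table only.

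Counts of the shared genes were fitted with edgeR 4.0.16 in R 4.3.3: filterByExpr (15236 genes kept), TMM scaling (1.06 for the knockout, 0.963 and 0.981 for the controls) and the two-sided quasi-likelihood F test with Benjamini-Hochberg adjustment at 0.05. All 47 shared members passed the filter. The common dispersion was 0.438. SE is the log2 fold change divided by the root of F. Exon lengths are unions of GENCODE M21 exons. Intervals are exact at 95% and cover counting error only. A floor stands in for a count of 0 and takes the other count as exact, so ratios to a floor are not lower limits. The labels tie no sample to an animal, and the spread behind the p-values is that of these libraries and may be technical. Symbols written as dates, 21 in all, were restored from gene IDs.

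The members, the roles and the list of 40 further genes were chosen with earlier results of these data known. Genes given with values in every library were those at a mean of 5 CPM or more and 1.5-fold or more from both controls, the most abundant per length in each role and those at 0 reads or in 1 table only; nearly all other members are given too, after their values were seen, and of the further genes the rule named those 2-fold from both controls. As alternatives, the scaling was changed to DESeq2 1.42.0 size factors or upper quartiles, the low-count filter was dropped or made stricter, genes in either table were used, the DESeq2 Wald test was run, and each control was left out. Single values of a few of the further genes are not reported here, and the counts over that list include them.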

Additional observations from a re-analysis of the deposited data

How the results depend on the processing

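The number of genes called over the whole table depended on the settings: 6 with the settings of the report, 0 with DESeq2 size factors, with upper-quartile factors or with no low-count filter, 10 with genes in either table, 44 under the filter of 5 CPM in at least 2 libraries, and 223 with the DESeq2 Wald test. Of the 47 cholesterol and lipoprotein genes, those tested under each edgeR setting (42 under the 5 CPM filter, which drops Pltp) gave 0 calls, and DESeq2 called 1 of the 45 with an adjusted p (Abcg1). Of the 35 further genes, those tested (31 under the 5 CPM filter) gave 0 calls by edgeR, and DESeq2 called 1 of 33 (Fabp5). The cause of these differences was not tested. The number of the 47 genes outside both controls was 35 under each scaling, and 30 with the stricter filter, which tests fewer genes. The median log2 fold change over the genes ranged from 0.24 (without control 5) to 0.35 (without control 6), and over the sterol enzymes from -0.00 (without control 6) to 0.19 (without control 5). Counts of calls could not be computed with a control left out, since 1 library a group leaves no residual degree of freedom. No paired analysis was possible because the replicate numbers are not shared between the genotypes. With 1 knockout library, differences of that library and of the genotype cannot be told apart, and genes under about 5 CPM rest on few reads.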
